A study of Mus musculus with 72 samples.

Results

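The response of mouse liver to a ketogenic diet was examined at zeitgeber time (ZT) 8, the 8th hour after lights on and the later part of the resting phase of a mouse. The 6 liver arrays labelled ZT8 were taken, 3 from the ketogenic diet (replicates 7, 8 and 24) and 3 from chow (replicates 10, 11 and 12), out of 72 arrays in the series. All came from male C57BL/6J mice, 8 weeks old at the start, kept in 12 h light and 12 h dark and given either food without restriction for 4 weeks. The other 30 liver arrays, 3 for each diet at ZT0, ZT4, ZT12, ZT16 and ZT20, served to ask what differed at ZT8. The protocol text shared by all samples also describes a last week of daily fructose gavage (4 g/kg for 7 days), drinking water with 30% sucrose for sucrose experiments, and killing at ZT0 and ZT12. It does not state which of these apply to the ZT8 livers. The labels give a number per array but do not state that replicates were separate animals, so each p-value measures the spread between arrays, which may be technical in part.

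A ketogenic diet is rich in fat and poor in carbohydrate. The liver then burns fatty acids and makes ketone bodies, a programme under the nuclear receptor PPARA, while insulin and carbohydrate signals that drive fat synthesis through SREBP1C and ChREBP weaken. Many of these genes also cycle over the day, since the hepatic clock (CLOCK and BMAL1, the latter encoded by Arntl, repressed by PER, CRY and REV-ERB proteins) and meal times both act on them. A comparison at a single hour therefore depends on every array having been collected at the hour on its label.

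Clock genes of chow replicate 12 had the levels of a later hour. Nr1d1, which encodes the repressor REV-ERBα, read 11.82, 11.74 and 10.18 in chow replicates 10, 11 and 12 on the log2(intensity + 16) scale used throughout, and 11.54, 11.94 and 11.66 in ketogenic replicates 7, 8 and 24. The value of chow replicate 12 lay outside the other 5 and close to 10.28 and 10.01 in chow ZT12 replicates 16 and 18. Cry1, a repressor of CLOCK and BMAL1, read 7.05, 6.97 and 8.07 in the same chow ZT8 arrays, and 7.79 and 7.95 in chow ZT12 replicates 16 and 18. In both genes chow replicates 10 and 11 were close to each other, and replicate 12 was near these ZT12 arrays. The remaining chow ZT12 array, replicate 17, read 11.72 for Nr1d1, near chow ZT8 replicates 10 and 11, and 7.29 for Cry1.

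A clock time was read in each liver array as the hour at which the 24 h curves of the chow arrays, fitted without that array, correlated best with it over the 33 clock and clock output genes with a fitted amplitude of at least 0.3. Chow ZT8 replicates 10 and 11 read 6.4 and 8.1 h, and ketogenic replicates 7, 8 and 24 read 8.5, 8.0 and 8.5 h. Chow replicate 12 read 12.5 h, 4.5 h after its label. Chow ZT12 replicate 17 departed the other way, reading 8.7 h, while the other 34 liver arrays lay within 1.7 h of their labels with a median gap of 0.7 h. With both odd arrays also kept out of the curves, chow replicate 12 read 12.0 h and chow ZT12 replicate 17 read 9.3 h. The difference of chow replicate 12 from its group mates was also compared with time over the whole array. Over 12463 genes it had a Pearson correlation of 0.50 with the difference between the ketogenic ZT12 and ZT8 groups, which share no array with it. Genes are not independent replicates, so this is given as a description. The labels do not settle whether chow ZT8 replicate 12 and chow ZT12 replicate 17 were exchanged, which would change the values of both hours, and this was not tested. Both labels were kept, and results follow with and without chow replicate 12.

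**Figure D1:**
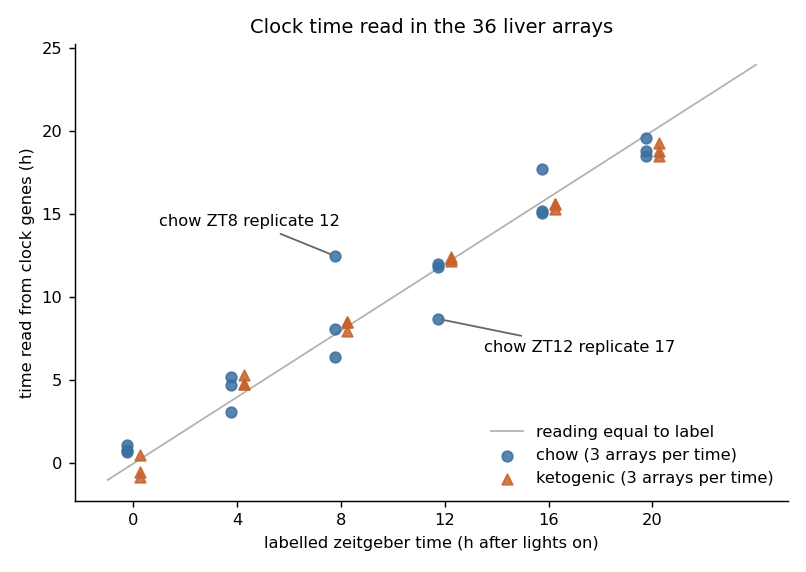
Clock time read from clock genes (vertical axis, hours) against the labelled zeitgeber time (horizontal axis, hours) for the 36 liver arrays, chow as circles and ketogenic as triangles, each point 1 array, shifted slightly sideways by diet. Chow ZT8 replicate 12 lies above the line of equal times at 12.5 h and chow ZT12 replicate 17 lies below it at 8.7 h.

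In genes of fat synthesis chow replicate 12 had the levels of its diet label. Over the 24 genes of de novo lipogenesis tested its mean level was 11.69, against 11.69 and 11.80 in chow replicates 10 and 11. The ketogenic arrays had 10.86 to 11.18. Pnpla3, a lipid droplet protein strongly driven by carbohydrate, was at 9.93 in chow replicate 12, between 9.90 and 10.07 in chow replicates 10 and 11. It was far from 7.14, 7.35 and 6.94 in ketogenic replicates 7, 8 and 24. Pnpla3 was among the largest falls called with and without chow replicate 12, so its agreement was built into the choice. Some other genes, such as Acpp below, had chow replicate 12 at the level of the ketogenic arrays. Chow replicate 11 stood apart in another way, with higher PPARA targets. Its mean level over the 42 PPARA targets of fatty acid oxidation was 11.34, against 10.79 and 10.69 in chow replicates 10 and 12 and 11.47 to 11.59 in the ketogenic arrays. Median intensity ran from 105 to 117 over the 6 arrays. Of 13 hepatocyte markers tested 1, Cps1 of the urea cycle, was called lower (1.19-fold, adjusted p 0.0201), and their summed intensity was 117724 to 123069 on chow and 110618 to 121657 on the ketogenic diet.

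At ZT8 many genes of fatty acid oxidation and some of fat uptake and storage read higher in the ketogenic liver. Several genes of making fat from sugar read lower. Of 12463 genes tested, 992 (7.96%) passed limma's moderated test at a Benjamini-Hochberg adjusted p of 0.05, and are called. Of these, 423 (3.39%) were higher and 569 (4.57%) lower on the ketogenic diet. Centring every array on its median changed the split to 276 higher and 671 lower. Of the called genes, 239 changed at least 1.5-fold, 110 up and 129 down. Without chow replicate 12, 195 genes (1.56%) were called higher and 316 (2.54%) lower; 466 genes were called in the same direction both with and without it, and none of the 992 changed sign. Leaving out single other arrays gave 491 to 834 calls, and 511 without chow replicate 12 lay within that range. The 3 arrays of one diet did not overlap with the 3 of the other for 3090 genes (24.8%), among them 955 of the 992 called. Lack of overlap in a called gene, where it is given below, therefore mostly follows from the call and is no further support.

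**Figure D2:**
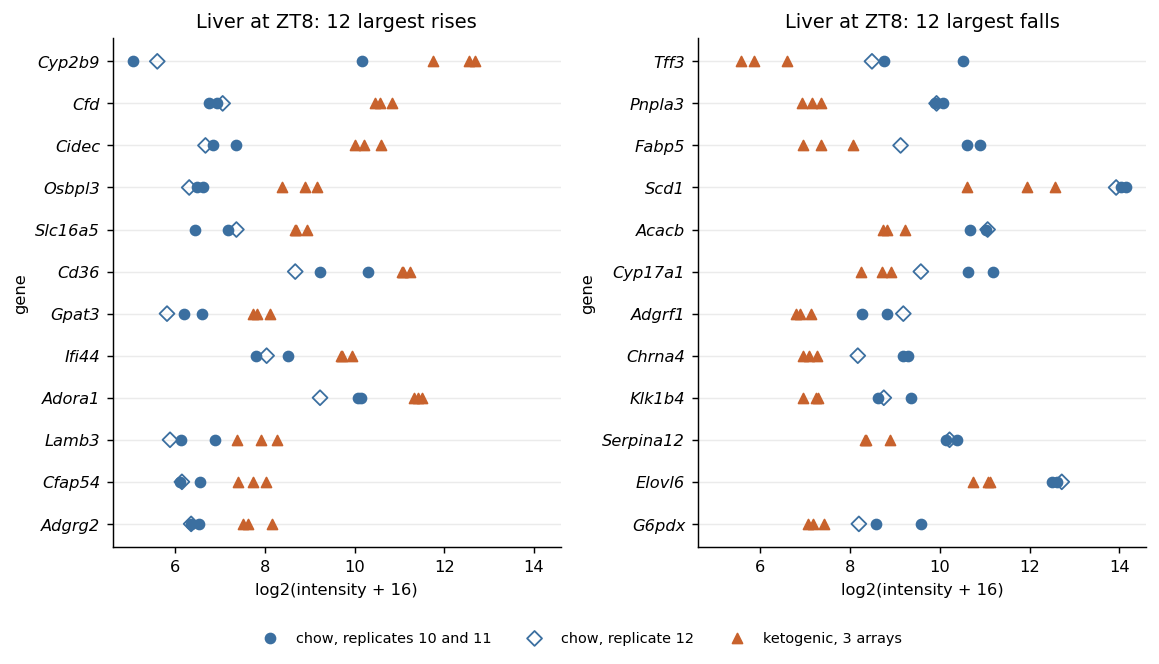
Level of the 12 largest rises (left) and 12 largest falls (right) among genes called both with and without chow replicate 12, each symbol 1 array on the log2(intensity + 16) axis: filled circles for chow replicates 10 and 11, open diamonds for chow replicate 12, triangles for the 3 ketogenic arrays. The ketogenic arrays lie to one side of all 3 chow arrays in each of the 24 genes, and Cyp2b9 shows chow replicate 11 at 10.17 far from the other chow arrays at 5.06 and 5.60.

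The largest rise was Cyp2b9, a cytochrome P450 whose expression in mouse liver is female-biased. It read 5.06, 10.17 and 5.60 in chow replicates 10, 11 and 12, and 12.68, 12.56 and 11.75 in ketogenic replicates 7, 8 and 24. The groups did not overlap, but chow replicate 11 lay far above the other chow arrays. The difference was 5.39 ± 0.98 (log2, n = 3 and 3), adjusted p 0.00063, and 4.71 ± 1.07 without chow replicate 12. Here and below, ± after a difference is the SE of the fit, which pooled the spread of liver arrays at all hours. In the ZT8 arrays alone the SD of Cyp2b9 was 2.81 on chow and 0.51 on the ketogenic diet. Probes of this array may not separate Cyp2b9 from its close relatives, and the same holds for the Cyp4a genes, Acot2, Hamp2, G6pdx and Klk1b4 below.

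Genes of the lipid droplet and of fatty acid uptake made up several of the other rises. Cidec, which fuses lipid droplets, read 6.83, 7.35 and 6.67 on chow and 10.02, 10.58 and 10.21 on the ketogenic diet, a 9.96-fold difference (adjusted p 3.8e-05). Cfd, adipsin, a protease of the alternative complement pathway best known from fat tissue, read 6.76, 6.93 and 7.06 on chow and 10.46, 10.84 and 10.57 on the ketogenic diet, a difference of 3.71 on the log2 scale (adjusted p 5.3e-05). Within each diet the arrays were close together in these 2 genes, and the diets were far apart. Osbpl3, an oxysterol-binding-protein relative at membrane contacts, read 6.49, 6.63 and 6.31 against 8.38, 9.16 and 8.89, a 5.05-fold difference (adjusted p 1.0e-06). Cd36, the fatty acid translocase, read 9.22, 10.29 and 8.67 against 11.09, 11.06 and 11.23, with chow replicate 11 again the highest chow array, and rose 3.32-fold (adjusted p 0.00033). Gpat3, an acyltransferase of glycerolipid synthesis, rose 3.21-fold (adjusted p 1.5e-05).

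Cfd, Cidec and Lipe also belong to a list of adipocyte markers, of which 8 of 11 were tested, 3 were higher and 1 (Pnpla3) lower. The shares over all genes were 3.39% and 4.57%. The defining markers Adipoq, Lep and Retn were below the filter for low values in liver; Adipoq read 33.1 to 38.6 intensity units on chow and 36.5 to 44.1 on the ketogenic diet. The summed intensity of the whole list was 13404 to 14145 on chow and 15584 to 17331 on the ketogenic diet, most of it from Car3, which hepatocytes express as well. In bulk tissue, fewer cells of a type and less RNA per cell cannot be told apart.

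The remaining rises of the 12 largest were of mixed function. Slc16a5, a monocarboxylate transporter, rose 3.42-fold (adjusted p 0.00531), and Adora1, the adenosine A1 receptor, 3.04-fold (adjusted p 0.00033). Ifi44, an interferon-induced gene, rose 3.19-fold (adjusted p 3.8e-05). Lamb3, a laminin chain, rose 2.94-fold, Cfap54, a protein of cilia and flagella, 2.73-fold, and Adgrg2, an adhesion G-protein-coupled receptor, 2.56-fold. All 12 were called without chow replicate 12 as well, since that was part of the choice. The chow means of Osbpl3 (6.48), Lamb3 (6.30), Cfap54 (6.27) and Adgrg2 (6.41), like that of Gpat3, lay below 6.84, the filter value set on the mean over all liver arrays, so these genes passed the filter through their ketogenic arrays and their folds start from a dim level. With no filter the adjusted p was 1.47e-06 for Osbpl3, 2.31e-05 for Gpat3, 0.000321 for Lamb3, 1.06e-05 for Cfap54 and 0.00185 for Adgrg2.

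The falls included genes of fatty acid synthesis and desaturation. Pnpla3, with the values given above, fell 7.06-fold (adjusted p 7.3e-06). Scd1, the stearoyl-CoA desaturase that makes monounsaturated fatty acids, read 14.05, 14.14 and 13.93 on chow and 11.94, 12.57 and 10.61 on the ketogenic diet, a 5.05-fold fall (adjusted p 9.0e-05). Its chow values were tight, and ketogenic replicate 24 was the lowest of the 3 ketogenic arrays. Acacb, acetyl-CoA carboxylase 2, whose product malonyl-CoA restrains mitochondrial fatty acid import, read 10.68, 11.03 and 11.06 against 8.82, 9.22 and 8.72, a 4.01-fold fall (adjusted p 1.5e-06). Elovl6, which elongates palmitate, read 12.50, 12.61 and 12.72 against 11.07, 11.13 and 10.74, a 3.10-fold fall (adjusted p 3.2e-07). G6pdx, the first enzyme of the pentose phosphate pathway and a source of NADPH, fell 2.95-fold (adjusted p 0.00048). In all 5 the groups did not overlap, as in most called genes.

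Other large falls lay outside lipogenesis. Tff3, trefoil factor 3, a secreted mucosal peptide, read 10.52, 8.75 and 8.49 in chow replicates 10, 11 and 12 and 5.56, 5.85 and 6.58 on the ketogenic diet, a 9.53-fold fall (adjusted p 4.8e-06). Its ketogenic mean of 6.00 lay below the filter value, and with no filter the adjusted p of Tff3 was 6.63e-06. Tff3 also stands in the list of cholangiocyte markers, of which the defining genes Krt19, Krt7 and Epcam were below the filter and 1 of 6 tested was called. That list had a summed intensity of 8758 to 9859 on chow and 3620 to 6652 on the ketogenic diet; its member Onecut1, also a hepatocyte factor, differed by -1.22 ± 0.72 and was not called. Fabp5, an intracellular fatty acid carrier, fell 6.76-fold (adjusted p 0.00014), with chow replicate 12 at 9.12 and the other chow arrays at 10.61 and 10.90. Cyp17a1, the steroid 17α-hydroxylase, fell 3.59-fold (adjusted p 0.0081), and Serpina12, the adipokine vaspin, 3.30-fold (adjusted p 7.1e-07). Adgrf1, an adhesion receptor, fell 3.54-fold, Chrna4, a nicotinic receptor subunit, 3.47-fold, and Klk1b4, a kallikrein-family protease, 3.36-fold.

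Most of the response at ZT8 was shared with the rest of the day. Over the mean of the other 5 time points, measured on other arrays, 2140 genes (17.2%) were called higher and 3488 (28%) lower. Of the 423 genes higher at ZT8, 353 (83.5%) were also called higher there, and they were 16.5% of the 2140. Of the 569 lower at ZT8, 492 (86.5%) were called lower there, 14.1% of the 3488. The sign was the same for 409 of the 423 and 552 of the 569. Across all 12463 genes the ZT8 difference and the mean of the other 5 differences had a Pearson correlation of 0.77, a description across genes that are not independent. By single hours in the same fit, ZT8 with 992 calls came after ZT20 with 2621 and ZT16 with 1563 and before ZT12 (768), ZT0 (669) and ZT4 (530). Without chow replicate 12 ZT8 had 511 calls, below each of these counts, but from fewer chow arrays than at the other hours. Leaving out any single ZT8 array lowered the calls, to between 491 and 834, so this rank is not like for like.

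**Figure D3:**
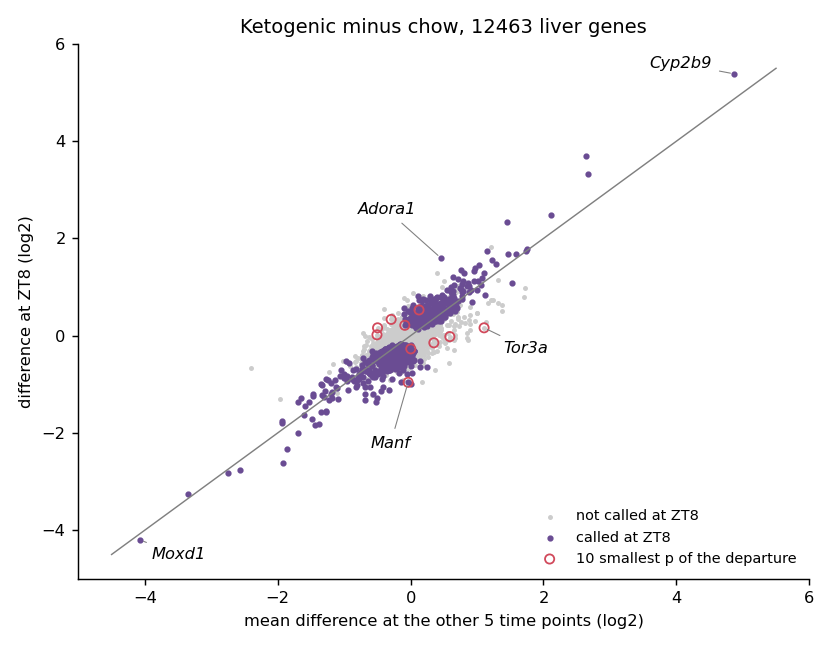
Difference between ketogenic and chow liver at ZT8 (vertical axis, log2) against the mean difference at the other 5 time points (horizontal axis, log2) for 12463 genes, each point 1 gene, with the line of equal differences. The 10 genes with the smallest p of the departure (red circles) include Tor3a, with 0.16 at ZT8 and 1.11 elsewhere, and Manf, with -0.96 at ZT8 and -0.04 elsewhere.

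Many genes of fatty acid oxidation rose. Of 42 PPARA targets tested, 25 were called higher (3.39% over all genes) and none lower. The median difference was 0.43, against 0.00 over all genes. Without chow replicate 12, 12 were called higher (1.56% over all genes) and the median was 0.35. Ucp2, a mitochondrial carrier protein, read 9.65, 10.01 and 9.49 on chow and 10.62, 10.82 and 10.81 on the ketogenic diet, a 2.05-fold rise (adjusted p 7.2e-05). Aldh3a2, which oxidises fatty aldehydes, read 11.43, 11.96 and 11.23 against 12.47, 12.54 and 12.57, a 1.98-fold rise (adjusted p 9.4e-05). In both genes the ketogenic arrays were close together and chow replicate 11 was the highest chow array. Acaa1a, the peroxisomal thiolase, rose 1.70-fold (adjusted p 4.7e-05) and Acadm, the medium-chain acyl-CoA dehydrogenase, 1.59-fold (adjusted p 0.00021). The 42 genes had a median difference of 0.39 over the mean of the other 5 time points, and none departed at ZT8 even at an unadjusted p under 0.05.

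Some classical PPARA targets were called only when chow replicate 12 was included. Cyp4a14, a fatty acid ω-hydroxylase, read 9.27, 12.72 and 10.05 in chow replicates 10, 11 and 12 and 13.09, 13.16 and 13.26 on the ketogenic diet. Its difference was 2.49 ± 0.65 (adjusted p 0.0172), and 2.17 without chow replicate 12 (adjusted p 0.0938). Chow replicate 11 was close to the ketogenic arrays. Acot2, a mitochondrial acyl-CoA thioesterase, had 9.01, 10.73 and 9.26 on chow against 11.12, 11.33 and 10.98, and Vnn1, a pantetheinase, 10.78, 12.06 and 9.90 against 12.26, 12.29 and 12.34. The adjusted p of Acot2 went from 0.0429 to 0.175 and that of Vnn1 from 0.0109 to 0.129 without chow replicate 12. Leaving out chow replicate 11 instead raised the number of the 42 targets called higher to 28.

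Of 12 genes of ketone body synthesis and transport, 5 were called higher and 1, Slc16a6, lower, against 3.39% and 4.57% over all genes. Without chow replicate 12 there were 3 higher and 1 lower, the latter Slc16a1 (both transporters were singled out after their values were seen). Bdh1, which interconverts acetoacetate and 3-hydroxybutyrate, rose 1.52-fold (adjusted p 0.0029), and Acat1, which supplies acetoacetyl-CoA, 1.32-fold (adjusted p 0.00044).

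Of 39 genes of lipid droplets, lipid uptake and export, 12 were called higher and 2 lower (7 and 2 without chow replicate 12). The shares over all genes were 3.39% and 4.57% (1.56% and 2.54% without that array), so the 2 lower were near the share. The list as a whole hardly moved, with a median of 0.04, 23 positive and 16 negative differences. Without chow replicate 12 the median was -0.03, with 17 positive and 22 negative. Beside Cidec, Osbpl3 and Fabp5 above, Slc27a1, a fatty acid transport protein, read 8.00, 8.55 and 8.24 on chow and 9.18, 9.20 and 9.10 on the ketogenic diet and rose 1.86-fold (adjusted p 9.6e-05). Lipe, hormone-sensitive lipase, rose 1.69-fold (adjusted p 0.00227).

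Several genes of de novo lipogenesis and of sugar use fell. Over all genes 4.57% were called lower, and 2.54% without chow replicate 12. Of 24 lipogenic genes tested, 9 were called lower and none higher, both with and without chow replicate 12, and the median difference was -0.53 at ZT8 against -0.65 over the mean of the other 5 time points. Pklr, liver pyruvate kinase and a ChREBP target, read 12.82, 12.99 and 13.10 on chow and 11.51, 12.03 and 11.50 on the ketogenic diet, a 2.45-fold fall (adjusted p 3.5e-05). Thrsp, a regulator of lipogenesis, fell 2.58-fold, but its adjusted p went from 0.0216 to 0.113 without chow replicate 12. Of 27 genes of glycolysis and fructose use, 9 were called lower and none higher (4 lower without chow replicate 12). Khk, ketohexokinase, the first enzyme of fructose breakdown, read 11.96, 12.10 and 12.04 against 11.12, 11.15 and 11.05, a 1.89-fold fall (adjusted p 1.2e-07). The diets did not overlap. Gpi1, glucose-6-phosphate isomerase, fell 1.46-fold (adjusted p 9.6e-05).

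Of 23 genes of gluconeogenesis and glycogen, 5 were called lower and none higher (2 lower without chow replicate 12). The share called lower over all genes was 4.57%, and 2.54% without that array. Pygl, liver glycogen phosphorylase, fell 1.51-fold (adjusted p 2.4e-05) and Ugp2, which makes UDP-glucose, 1.29-fold (adjusted p 0.0064). G6pc, glucose-6-phosphatase, read 12.83, 12.93 and 12.89 on chow and 11.91, 12.82 and 11.98 on the ketogenic diet, with ketogenic replicate 8 near the chow level. Its adjusted p was 0.0201 with all arrays and 0.0637 without chow replicate 12. Ppp1r3b, a glycogen-targeting phosphatase subunit, had chow replicate 12 highest at 11.62 and its adjusted p went from 0.0111 to 0.0974 without it.

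Of 26 cholesterol genes, 7 were called higher and none lower, but only Cyp51 was called without chow replicate 12. The share called higher over all genes was 3.39%, and 1.56% without that array. Cyp51, lanosterol demethylase, read 9.96, 10.07 and 9.69 on chow and 10.68, 11.04 and 11.21 on the ketogenic diet, a 2.11-fold rise (adjusted p 0.00663; 0.0441 without chow replicate 12). Hmgcs1, which makes the HMG-CoA used for sterols, read 10.99, 11.39 and 9.98 against 11.90, 12.27 and 12.21, with chow replicate 12 well below its group mates. Its adjusted p went from 0.01 to 0.111. The list median stayed at 0.26 without the array, close to 0.28 with it. At ZT4, 4 h earlier, 16 of the 26 were called higher with a median of 0.76, and the median was 0.04 at ZT20. The chow ZT4 arrays were uneven for this list, with a mean level of 10.40 ± 0.66 (SD, n = 3), from 9.64 to 10.79. At ZT8 chow had 10.67 ± 0.16. On the ketogenic diet the mean level was 11.19 at ZT4 and 11.05 at ZT8. How far the ZT4 median rests on the uneven chow arrays was not tested.

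Of 22 bile acid genes, 4 were called higher and 1 lower (3 and 1 without chow replicate 12). The shares over all genes were 3.39% and 4.57% (1.56% and 2.54% without that array), so the count of 1 lower was near the share. Abcb4, the canalicular phospholipid exporter, rose 1.47-fold (adjusted p 0.00034) and Abcc3, a basolateral exporter of organic anions, 2.18-fold (adjusted p 0.00377). Fgfr4, the hepatic receptor for the gut hormone FGF15, fell 1.33-fold (adjusted p 0.0138). Cyp7a1, the rate-limiting enzyme of bile acid synthesis, read 10.87, 11.19 and 11.89 in chow replicates 10, 11 and 12 and 12.05, 11.77 and 12.06 on the ketogenic diet. Chow replicate 12 lay within the range of the ketogenic arrays, and the rise was called only without it (0.93, adjusted p 0.049, against 0.64, adjusted p 0.138).

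Drug and steroid metabolism was split, with 5 of 49 genes higher and 5 lower (6 and 4 without chow replicate 12). These counts and those of the next 3 lists stand against 3.39% of all genes higher and 4.57% lower. Without chow replicate 12 the shares were 1.56% and 2.54%. Nr1i3, the xenobiotic receptor CAR, read 10.57, 10.77 and 10.72 on chow and 11.51, 11.39 and 11.56 on the ketogenic diet, a 1.74-fold rise (adjusted p 7.7e-05). Aox1, aldehyde oxidase, rose 1.77-fold (adjusted p 0.00011), while Cyp2c70, which makes muricholic acids in mice, fell 2.28-fold (adjusted p 7.4e-06). Of 50 genes of amino acid breakdown and the urea cycle, 8 were higher and 4 lower. Ivd, isovaleryl-CoA dehydrogenase of leucine breakdown, rose 1.43-fold and Agxt, alanine-glyoxylate aminotransferase, 1.62-fold, while Acmsd, a branch-point enzyme of tryptophan breakdown, fell by 1.32 on the log2 scale (adjusted p 0.00043). In the respiratory chain and TCA cycle 4 of 43 were higher and none lower, Idh2 by 1.39-fold and Suclg1 by 1.32-fold. Acute phase and complement genes had 1 of 27 higher, Cfd, which is near the share over all genes. In this list 6 were lower, among them Orm1, an acute phase glycoprotein, by 1.72-fold (adjusted p 0.00023). Hamp2, a hepcidin relative, read 11.61, 12.08 and 11.52 on chow and 9.87, 9.78 and 7.68 on the ketogenic diet, with ketogenic replicate 24 lowest, and was called only with chow replicate 12 (adjusted p 0.0428 and 0.0958).

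Counts in the other lists are to be read against 3.39% of all genes higher and 4.57% lower, and several were near these shares. Of 25 antioxidant and NADPH genes 3 were higher and 1 lower, with Ugdh, a source of glucuronic acid, up 1.53-fold. Insulin, IGF and FOXO signalling had 1 of 30 higher (Trib3) and 3 lower (Egfr, Sesn3 and Akt1). Of 24 glucocorticoid and fasting regulators none was higher and 2, Dusp1 and Crem, were lower. Of 20 genes of the FGF21 and ATF4 response 3 were higher (Trib3, Vldlr and Cth). Iron genes had 1 of 24 higher and 2 lower, sirtuins and NAD salvage 2 of 23 higher (Sirt3 and Nadk2), the heat shock list 1 of 24 lower (Hspa8), the cell cycle list 1 of 8 lower (Rrm2) and the immediate early list 1 of 12 lower (Dusp1).

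Of 19 core clock genes tested at ZT8, Arntl and Cry1 were called lower, against 4.57% of all genes, and none higher; without chow replicate 12 none was called. Arntl read 7.82, 6.62 and 7.32 in chow replicates 10, 11 and 12 and 6.36, 6.29 and 6.15 in ketogenic replicates 7, 8 and 24. Chow replicate 11 was near the ketogenic arrays, and replicate 10, which read 6.4 h, was highest. The difference of -0.99 ± 0.26 (adjusted p 0.0167) was almost as large without chow replicate 12, at -0.95, with an adjusted p of 0.0623. Cry1 went from -0.62 (adjusted p 0.0476; 0.074 with no filter on low values) to -0.26 (adjusted p 0.412).

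The Cry1 promoter is shown because the Cry1 call turned on chow replicate 12; the window is chr10:85185005-85185304 of GRCm38.p6, minus strand, 250 bases before to 50 after the start in RefSeq, with the E-box CACGTG, to which CLOCK and BMAL1 bind, in capitals. The same 6 letters, which read alike on both strands, were found in 7.15% of 32851 such windows and are no measure of binding.
Cry1: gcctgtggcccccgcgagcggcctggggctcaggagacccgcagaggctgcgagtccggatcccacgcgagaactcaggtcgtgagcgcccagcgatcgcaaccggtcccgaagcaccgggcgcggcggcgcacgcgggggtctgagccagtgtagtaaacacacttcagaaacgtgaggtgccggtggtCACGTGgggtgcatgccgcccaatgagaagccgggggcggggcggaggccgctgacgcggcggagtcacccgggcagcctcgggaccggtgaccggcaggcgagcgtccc

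The other 17 core clock genes were not called. Npas2, a partner of BMAL1, read 6.63, 5.73 and 4.73 in chow replicates 10, 11 and 12, in the order of their clock readings, and 4.75, 5.16 and 5.36 on the ketogenic diet. Per2 read 9.01, 9.48 and 10.15 in the chow arrays and 9.11, 9.09 and 9.38 in the ketogenic arrays, and Per1 8.62, 8.90 and 9.52 against 8.83 to 9.03. In these repressor genes chow replicate 12 was the highest array. Per2 differed by -0.35 with all arrays and -0.05 without chow replicate 12, and Nr1d1 by 0.47 and -0.07. Differences of Clock, Per3, Cry2, Nr1d2, Rora, Bhlhe40, Bhlhe41, Ciart, Csnk1d, Csnk1e and Fbxl21 ranged from -0.33 in Bhlhe40 to 0.73 in Bhlhe41, the last with an adjusted p of 0.113.

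Clock output genes gave 2 of 24 lower with all arrays (4.57% over all genes), Tspan4 and Slc45a3. Tspan4, a tetraspanin, read 10.73, 10.83 and 11.57 on chow and 10.15, 10.20 and 10.20 on the ketogenic diet and fell 1.81-fold (adjusted p 0.00056; 0.00939 without chow replicate 12). Slc45a3, a sugar transporter of the SLC45 family, fell 1.53-fold (adjusted p 0.0186; 0.163 without chow replicate 12). Nampt, the rate-limiting enzyme of NAD salvage, was called higher only without that array (0.53, adjusted p 0.00708); it was singled out after its values were seen.

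Several genes of protein folding in the endoplasmic reticulum (ER) fell on the ketogenic diet at ZT8. Of 32 ER chaperone and unfolded protein response genes, 9 were called lower (4.57% over all genes) and none higher. A negative difference was found in 28 (6259 of 12463 over all genes), and the median was -0.19. Without chow replicate 12, 4 were called lower (2.54% over all genes), 28 were negative and the median was -0.16. Manf, a secreted ER stress protein, read 9.94, 9.66 and 10.15 on chow and 8.99, 9.02 and 8.86 on the ketogenic diet, a 1.94-fold fall (adjusted p 0.00156; 0.0179 without chow replicate 12). Hspa5, the chaperone BiP that binds unfolded proteins and the sensors of ER stress, read 12.02, 11.96 and 12.13 against 11.45, 11.68 and 11.42, a 1.43-fold fall (adjusted p 0.00642; 0.0415). The 2 diets did not overlap in either gene. Creb3l2, a membrane-bound transcription factor of the secretory pathway, fell 1.41-fold (adjusted p 0.00642) and Edem1, which sorts misfolded glycoproteins for degradation, 1.31-fold (adjusted p 0.0029).

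The promoters of Hspa5 and of Hsp90b1, the ER chaperone GRP94, are shown because both carry the ER stress element, CCAAT and CCACG separated by 9 bases (searched on both strands), while their RNA differed unequally. The windows, from RefSeq, are chr2:34771840-34772139 on the plus strand for Hspa5 and chr10:86705395-86705694 on the minus strand for Hsp90b1, both GRCm38.p6, with the element in capitals.
Hspa5: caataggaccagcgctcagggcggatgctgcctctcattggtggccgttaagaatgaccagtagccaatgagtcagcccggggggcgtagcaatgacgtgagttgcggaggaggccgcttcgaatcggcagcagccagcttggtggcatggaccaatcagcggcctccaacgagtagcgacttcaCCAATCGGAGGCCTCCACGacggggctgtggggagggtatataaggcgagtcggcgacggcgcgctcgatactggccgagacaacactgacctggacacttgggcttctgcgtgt
Hsp90b1: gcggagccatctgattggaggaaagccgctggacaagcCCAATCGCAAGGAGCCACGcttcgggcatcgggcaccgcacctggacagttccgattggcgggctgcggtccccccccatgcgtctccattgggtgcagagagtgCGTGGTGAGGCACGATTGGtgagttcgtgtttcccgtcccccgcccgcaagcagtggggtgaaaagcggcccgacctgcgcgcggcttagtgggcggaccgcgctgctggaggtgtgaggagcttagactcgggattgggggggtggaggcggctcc

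The element occurred in 0.12% of the 32851 windows and in 10 of 27 genes of the list with a window. Among the 7 of the 9 genes called lower that had a window, only Hspa5 held it, and 9 of the other 20 did, Hsp90b1 among them. Hsp90b1, named for this comparison after its values were seen, differed by -0.12 (adjusted p 0.518). A match is a description of letters in the window.

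At the other hours the median difference of the ER genes was -0.11 at ZT0, -0.12 at ZT4, 0.01 at ZT12, 0.09 at ZT16 and -0.12 at ZT20, and 3 or fewer were called lower at any of these times. Hspa5 differed by 0.03 and Manf by -0.04 over the mean of the other 5 time points. Against that mean 27 of the 32 genes departed downwards at ZT8. An unadjusted limma p under 0.05 for the departure was found in 8 of the 32 (1155 of 12463 over all genes). Without chow ZT8 replicate 12 and chow ZT12 replicate 17 it was found in 3 (752 over all genes). No ER gene passed an adjusted p of 0.05 for the departure. At ZT8 the mean level of the list was 10.59 ± 0.15 (SD, n = 3) on chow and 10.34 ± 0.04 on the ketogenic diet, the lowest of the 12 liver groups. Chow replicate 11, at 10.41, was nearer to the ketogenic arrays than chow replicates 10 and 12, at 10.69 and 10.66.

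Several interferon response genes rose on the ketogenic diet at ZT8. Of 36 tested, 6 were called higher (3.39% over all genes) and none lower. Without chow replicate 12, 4 were called higher (1.56% over all genes). A positive difference was found in 32 (6204 of 12463 over all genes), and the median was 0.24. Beside Ifi44, Irf7, the factor that amplifies interferon production, read 9.40, 9.58 and 9.39 on chow and 10.30, 10.23 and 10.36 on the ketogenic diet, a 1.79-fold rise (adjusted p 0.00013). Ifi27 rose 1.56-fold (adjusted p 0.00351) and Gbp3, a guanylate-binding protein, 1.62-fold (adjusted p 0.015). The groups were apart in all 4 genes. Over the other hours the median was 0.94 at ZT0, 0.61 at ZT4, 0.00 at ZT12, 0.59 at ZT16 and 1.32 at ZT20, with 26, 19, 3, 13 and 30 genes called higher. Chow levels of the list were between 8.51 and 8.69 at every time, while the ketogenic level was 9.52 at ZT0, 8.98 at ZT8, 8.54 at ZT12 and 9.97 at ZT20.

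**Figure D4:**
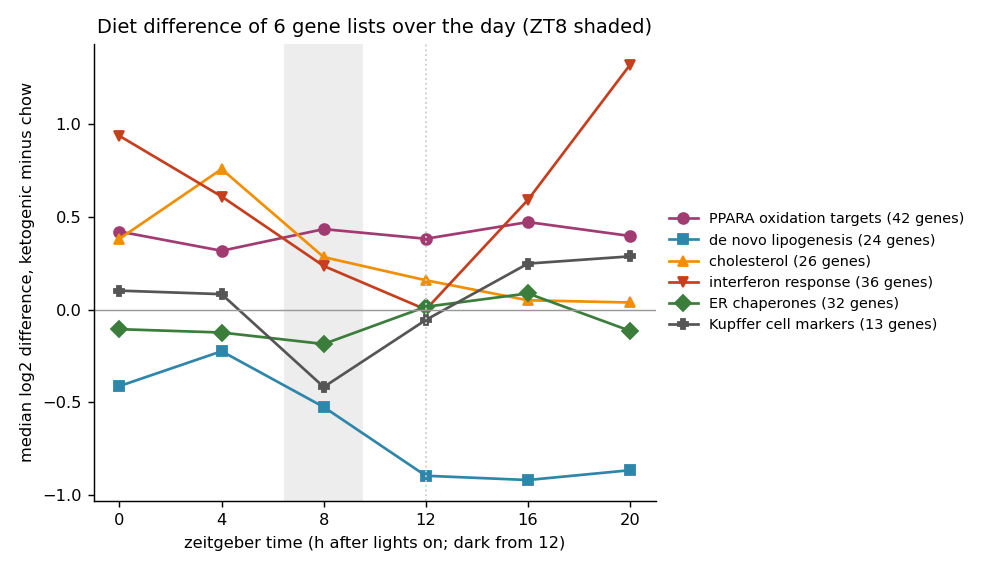
Median difference between ketogenic and chow liver (vertical axis, log2) of 6 gene lists at each zeitgeber time (horizontal axis, hours), each point the median over the tested genes of a list. The PPARA targets stay between 0.32 and 0.47, the interferon genes fall from 0.94 at ZT0 to 0.00 at ZT12, and the Kupffer cell markers reach -0.42 at ZT8.

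Markers of Kupffer cells, the resident macrophages of the liver, read lower on the ketogenic diet at ZT8, though few passed the test. All 13 of the 13 tested had a negative difference, with and without chow replicate 12, and the median was -0.42, against 0.00 over all genes; C1qc and Timd4 were called, and neither was called without chow replicate 12. C1qc, a chain of complement C1q made by macrophages, read 9.64, 9.61 and 9.40 on chow and 9.13, 8.75 and 9.19 on the ketogenic diet, a 1.44-fold fall (adjusted p 0.0439; 0.0623 without chow replicate 12). Timd4, a receptor for dying cells on resident Kupffer cells, read 7.96, 8.11 and 7.99 against 7.67, 7.17 and 7.70, a 1.42-fold fall (adjusted p 0.0464; 0.107). Ketogenic replicate 8 was lowest in both genes and the diets did not overlap. Adgre1, a surface antigen of macrophages, differed by -0.62 ± 0.23 (adjusted p 0.0909) and Csf1r, the receptor of macrophage growth factor CSF1, by -0.43 ± 0.16 (adjusted p 0.0964). The summed intensity of the 15 matched markers was 7909 to 9370 on chow and 5539 to 7143 on the ketogenic diet.

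The median difference of the Kupffer markers was 0.10 at ZT0, 0.08 at ZT4, -0.06 at ZT12, 0.25 at ZT16 and 0.29 at ZT20, and no marker was called at any of these. Against the mean of the other 5 time points all 13 departed downwards, 10 of them at an unadjusted limma p under 0.05 (1155 of 12463 over all genes). Without chow ZT8 replicate 12 and chow ZT12 replicate 17 it was 11 of them (752 over all genes). None passed an adjusted p of 0.05. These markers move together in a tissue sample, so 13 genes are not 13 observations. The mean level was 8.81 ± 0.21 (SD, n = 3) in the ketogenic ZT8 group, the lowest of the 12 liver groups, and 9.21 ± 0.10 on chow at ZT8. Among markers of other cells, 1 of 10 of liver endothelium was called lower (Stab1, 1.18-fold), with 8 of 10 negative at ZT8 and 10 of 10 departing downwards. Over all genes 6259 of 12463 were negative at ZT8, 4.57% were called lower and the median departure was 0.02. None of 11 markers of stellate cells and fibroblasts (8 negative), none of 5 of T and B cells (4 negative) and none of 2 of erythroid cells (2 negative) was called. The single tested neutrophil marker, Elane, was called higher (1.41-fold, adjusted p 0.0334; 0.0547 with no filter on low values), as was 1 of 3 markers of intestinal epithelium, Fabp2 (1.67-fold, adjusted p 0.0259), and none of 4 of exocrine pancreas or of 4 of striated muscle was called. The part of Kupffer cell content in the ER and interferon results was not tested.

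**Figure D5:**
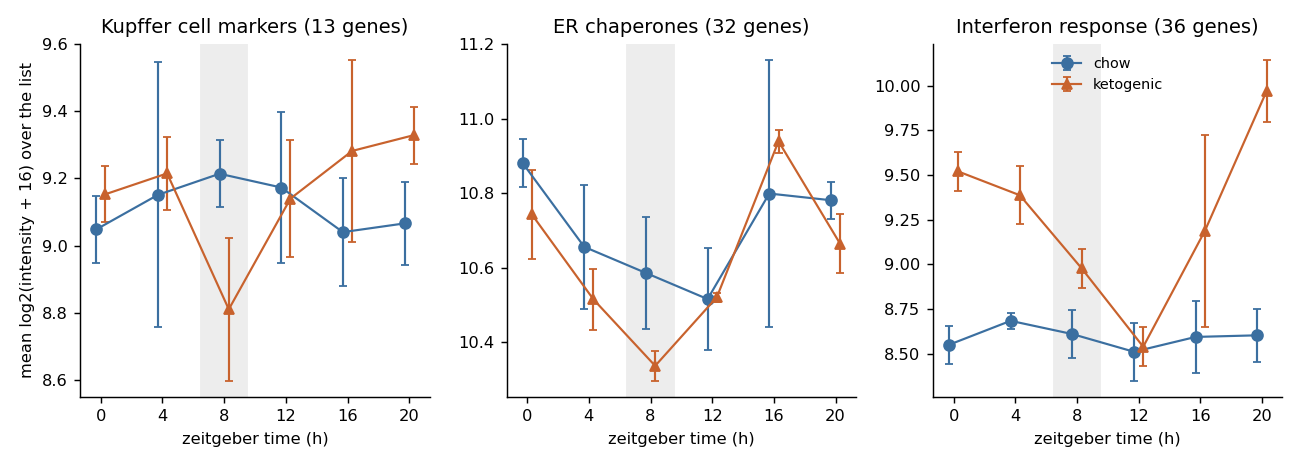
Mean level of 3 gene lists (vertical axes, mean log2(intensity + 16) over the tested genes; each panel has its own scale that does not start at 0) against zeitgeber time (horizontal axis, hours), chow as circles and ketogenic as triangles, points the mean of 3 arrays and bars the SD. At ZT8 the ketogenic Kupffer markers are at 8.81 and the ketogenic ER chaperones at 10.34, each the lowest of its 12 groups.

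No gene passed the test for an effect particular to ZT8. The ZT8 difference minus the mean of the differences at the other 5 time points was called for 0 of 12463 genes (0%) by limma, with a smallest adjusted p of 0.0523; 1155 had an unadjusted p under 0.05. Without chow ZT8 replicate 12 and chow ZT12 replicate 17 it was also 0, with a smallest adjusted p of 0.149 and 752 genes at an unadjusted p under 0.05. Genes with small p are given next, as a description.

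Helz2, a helicase co-activator of PPAR receptors that interferon also induces, differed by -0.15 at ZT8 and 0.35 over the other times (departure unadjusted p 8.4e-06), and Tor3a, an interferon-induced torsin of the ER, by 0.16 and 1.11 (9.7e-05). Scaf1, a splicing-associated protein, fell at ZT8 by 0.27 (adjusted p 0.00249) and differed by 0.00 elsewhere (departure unadjusted p 0.0001). Manf departed by -0.92 (0.0001; 0.0014 without the 2 odd arrays).

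Among the positive departures, Plekhg6, a guanine nucleotide exchange factor, differed by 0.16 at ZT8 and -0.50 elsewhere (departure unadjusted p 3.2e-05). Ulk1, the kinase that starts autophagy, read 10.62, 10.47 and 10.52 on chow and 10.54, 10.64 and 10.48 on the ketogenic diet at ZT8, overlapping, and differed by -0.31 at ZT0, -0.13 at ZT4 and -0.75 at both ZT12 and ZT16. Tbcel, a tubulin cofactor-like protein, differed by 0.34 and -0.29. Its chow replicate 12 read 10.05, against 10.57 and 10.59 in chow replicates 10 and 11. The ZT8 difference of Tbcel was not called (adjusted p 0.103) and was 0.16 without chow replicate 12 (adjusted p 0.53). Its departure went from 0.63 to 0.42 without the 2 odd arrays. Naa35, a subunit of an N-terminal acetyltransferase, differed by 0.21 and -0.09. Laptm4b, a lysosomal membrane protein, rose 1.44-fold at ZT8 (adjusted p 0.00011) and differed by 0.13 elsewhere. Of the genes named above for their size at ZT8, Adora1 differed by 1.60 at ZT8 and by 0.14 to 0.79 at the other hours. Osbpl3 differed by 2.34 at ZT8, against 1.26 to 1.71. Both were chosen for a large difference at ZT8, which raises the departure by itself, so no p-value of the departure is given for them.

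Beyond the genes already given, Moxd1, a monooxygenase-like protein, was the largest difference called only when chow replicate 12 was included. It read 13.75, 8.45 and 11.84 in chow replicates 10, 11 and 12 and 7.58, 7.26 and 6.59 on the ketogenic diet. The chow arrays were far apart; the difference was -4.20 ± 1.28 (adjusted p 0.04), and -3.96 without chow replicate 12 (adjusted p 0.13). Bach2, Acpp, Camk1d and Scd2 were called lower, and Tmem88b higher, only without chow replicate 12. For Acpp, a transmembrane acid phosphatase, chow replicate 12 read 7.31, at the level of the ketogenic arrays (7.29, 7.30 and 6.93), while chow replicates 10 and 11 read 8.02 and 8.42. Over all genes, 526 calls were present only with the array and 45 only without it.

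The authors' deposited table gives a Cyber-T p-value for each probe set and hour. In it 2828 of 25006 probe sets (11.3%) had p under 0.05 at ZT8, against 3006 at ZT0, 1762 at ZT4, 2916 at ZT12, 4319 at ZT16 and 7227 at ZT20. Of the 992 genes called here, 987 had a row in the authors' deposited table, all with the same sign of difference. Of these, 967 had a Cyber-T p under 0.05, taken without adjustment. The ZT8 group means of that table matched the series values for all 25006 probe sets. It rests on the same arrays, so this is not an independent check.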

How the data were processed

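Each array measured the RNA of 1 liver sample. The authors deposited PLIER intensities per probe set, made in Affymetrix Expression Console 1.1.1 per the submitters' processing notes, and a table of group means with Cyber-T p-values; background correction and normalization settings are not given in the sources used here. Here 16 was added to each intensity and log2 taken (8.34% of ZT8 liver values lay below 16). Of 35556 probe sets, 23163 had 1 gene name, 1621 several and 10772 none. Each gene kept its probe set with the highest liver mean, and genes below the 40th percentile were left out, leaving 12463. limma 3.58.1 (R 4.3.3) fitted 12 group means over 36 liver arrays, pooling their spread; calls use a Benjamini-Hochberg adjusted p under 0.05, and a fold understates the change of dim genes. The departure at ZT8 is its difference minus the mean of the other 5. Clock readings and lists used Python 3.11.15 with numpy 2.4.6. The fit was tested on simulated data.

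Genes named are the 12 largest rises and falls called with and without chow ZT8 replicate 12, the 5 smallest p of the departure in each direction, up to 4 members with the smallest p per list, all core clock genes, and the 6 largest differences called only with, and only without, that array. The members, lists and rule were chosen with earlier results of these data known. A few of these genes are not reported here. Intestine arrays enter no comparison here, and no column of the tables belonged to a sample outside the series. Alternatives were another pseudocount, filter, normalization, array weights, a replicate block, fewer arrays and each array left out. The number of arrays limits the precision.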

Additional observations from a re-analysis of the deposited data

Results flagged for a closer look

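The diet effect differed over the 6 time points for 44 genes by limma's F test of the interaction, among them Tor3a (adjusted p 0.0054), Helz2 (adjusted p 0.0113), Ulk1 (adjusted p 0.0148) and Ifi44 (adjusted p 0.018). Tor3a and Helz2 had their lowest difference of the 6 hours at ZT8, at 0.16 and -0.15, against means of 1.11 and 0.35 elsewhere. Ulk1 differed by 0.02 at ZT8 and -0.51 elsewhere. Ifi44 differed by 1.67 at ZT8 and 1.59 over the other times, so its difference over the day was not one between ZT8 and the mean of the rest.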

How the results depend on the processing

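The 992 calls at ZT8 became 548 without chow ZT8 replicate 12 and chow ZT12 replicate 17, 297 from the 6 ZT8 arrays alone, 227 from 5 of them without chow replicate 12 (chosen after seeing the data), 239 with a 1.5-fold minimum, and 491 to 834 with 1 array left out. Genes called higher (423) became 213, 125 and 89 in the first 3 of these, 276 with median centring, and 195 to 398 with 1 array left out. Genes called lower (569) became 335, 172 and 138, 376 with no filter on low values, and 262 to 464. The fits on ZT8 arrays alone have fewer arrays from which to estimate the spread. The departure at ZT8, called for 0 genes by limma (1155 at an unadjusted p under 0.05), was called for 2, Helz2 among them, with the 60th percentile filter, 2 with quantile normalization and 2 with an intensity trend and robust variance; the F test over all times called 44, and leaving out 1 array gave 0 to 11, the 11 without chow replicate 11. Core clock and output calls (4) became 0 with 6 arrays, 1 with 5, and 1 to 6. PPARA targets higher (25) became 12 without both odd arrays, 8 with 6, 5 with 5, and 12 to 28. Lipogenic genes lower (9) ranged from 8 to 9. ER genes lower (9) became 4, 3 and 2, and ranged from 4 to 10. Interferon genes higher (6) became 3 with 5 arrays and ranged from 3 to 9. Cholesterol genes higher (7) became 1 without both odd arrays, 4 with 5, and 1 to 7. The cause of these changes was not tested. With the title number as a replicate block, 1022 genes were called (correlation 0.059); at ZT8 the diets share no number, so the block links arrays only across time points and pairs none here. Of 105 named genes called, 43 were called under every alternative, and no called difference changed sign under any of them. Array weights were estimated with a warning that convergence was not reached.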
